A study of Canis lupus familiaris with 27 samples.

Results

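Canine simple mammary carcinomas with much fibrillar collagen mRNA were compared with those holding little of it. Each of 27 tumors was scored by the mean log2 signal of COL1A1 and COL3A1, the genes of the chain of type I collagen that is present in 2 copies per molecule and of the single chain of type III collagen. The 9 tumors of highest score, called collagen-rich, were set against the 9 of lowest score, called collagen-poor, so that 18 of 27 tumors entered the comparison. The tumors were thus selected on the measured levels of COL1A1 and COL3A1, so the levels of these genes in the groups are a description with no test. Of the 9 collagen-rich tumors 7 were metastatic and 2 non-metastatic, and of the 9 collagen-poor tumors 4 were metastatic and 5 non-metastatic. Metastatic means that the dog had lymph node metastases when the tumor was removed.

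Each tumor was a spontaneous carcinoma of invasive growth from another dog, labelled negative for estrogen receptor alpha, and was hybridized to 1 microarray. The series held 13 metastatic and 14 non-metastatic tumors of several breeds. Age was 12.8 ± 2.39 years in collagen-rich and 11.3 ± 2.06 years in collagen-poor dogs (SD, n = 9 each). Macrodissected tissue was used, and only sections with over 70% carcinoma cells were taken, which limits the stroma that could be sampled and is not recorded per tumor.

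Fibrillar collagens are secreted mainly by fibroblasts as procollagens, whose chains are hydroxylated and folded in the endoplasmic reticulum, trimmed outside the cell and cross-linked into fibrils. In mammary tumors, a collagen-dense stroma built by activated fibroblasts is a long known feature called desmoplasia. Simple carcinomas are built of 1 epithelial cell type, unlike complex carcinomas, which also contain proliferating myoepithelium. In bulk tissue, fewer cells of a type and less RNA per cell cannot be told apart.

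The score was 14.42 to 15.97 with a median of 15.01 in collagen-rich tumors, and 10.21 to 13.42 with a median of 13.06 in collagen-poor tumors. The means were 15.05 ± 0.58 and 12.63 ± 1.01, a gap of 2.42 on the log2 scale, where each unit is a factor of 2. The cuts ran through a continuous range. Metastatic 2 (14.42) was the last tumor inside the collagen-rich group and metastatic 5 (14.38) the first outside it, and metastatic 12 (13.42) was the last inside the collagen-poor group and metastatic 4 (13.62) the first outside it. The 9 tumors between them scored 13.62 to 14.38.

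**Figure D1:**
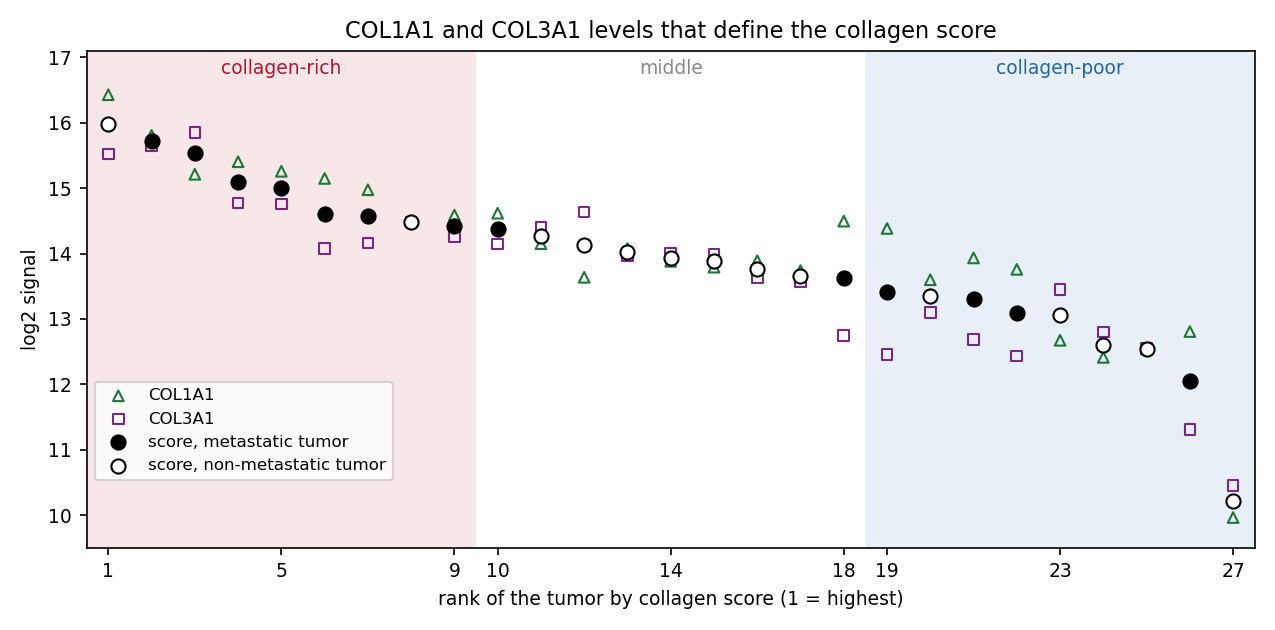
Log2 signal of COL1A1 (triangles) and COL3A1 (squares) and their mean, the collagen score (circles, filled for metastatic tumors), of 27 tumors by rank of the score. The scores run without a step at either cut, and only the tumor of rank 27 (10.21) lies apart from the others.

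COL1A1 ranged over 14.49 to 16.43 (median 15.21) in collagen-rich and 9.96 to 14.38 (median 12.81) in collagen-poor tumors. COL3A1 ranged over 14.07 to 15.85 (median 14.76) in collagen-rich and 10.46 to 13.45 (median 12.55) in collagen-poor tumors. A single tumor, non-metastatic 8, had the lowest level of both genes, and its score of 10.21 lay below the next of 12.06. At the other end, non-metastatic 12 had the highest score and also the lowest mean level of the luminal epithelial genes among all 27 tumors (4.80). Although non-metastatic when it was removed, this is the tumor of the one dog in its lymph node group for which the study recorded lung metastases after surgery.

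The labels of the groups overlapped. Lymph node metastases were present in 7 of 9 collagen-rich and 4 of 9 collagen-poor tumors (Fisher's exact test, two-sided, p = 0.335), and in 2 of the 9 tumors between them. Grade III was given to 6 collagen-rich and 5 collagen-poor tumors (exact p = 1). Tumor size was 3.89 ± 2.09 cm against 2.56 ± 1.01 cm (SD, n = 9 each; exact permutation test, two-sided, p = 0.144), and the difference in age gave an exact p of 0.223. A HER-2 positive label was carried by 8 of 9 collagen-rich and 8 of 9 collagen-poor tumors. The labels give every non-metastatic tumor as HER-2 positive, whereas the study's own table gives a negative one among them. No label passed Benjamini-Hochberg adjustment over the 5 labels tested, the lowest adjusted p being 0.557. Over all tumors the score was 14.2 ± 1.06 in metastatic (n = 13) and 13.6 ± 1.29 in non-metastatic tumors (n = 14), a difference of 0.65 (permutation test, two-sided, p = 0.163). By gene the difference was 1.13 for COL1A1 (permutation test, two-sided, unadjusted p = 0.0137) and 0.18 for COL3A1 (p = 0.714). Whether these 2 differences differ from each other was not tested. Across 27 tumors the score had a Pearson r of 0.111 with size (permutation p = 0.559, Spearman rho 0.174, p = 0.385) and of 0.325 with age (permutation p = 0.0982, rho 0.346, p = 0.0779). For survival, recorded as a time for 11 dogs, all of them metastatic, r was −0.235 (permutation p = 0.488, rho −0.294, p = 0.377). The lowest of the 3 adjusted p values was 0.295. Each correlation was repeated without the 2 tumors farthest from the median of that label, not of the score. The r was then 0.208 with size, 0.231 with age and 0.0393 with survival. Within the lymph node groups r with size was 0.297 in metastatic and 0.301 in non-metastatic tumors, and r with age was 0.242 and 0.357.

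Among 15113 other genes, fitted with lymph node status as covariate, 4 changed at an adjusted p under 0.05 (0.0265%): 3 rose (0.0199%) and 1 fell (0.00662%) in collagen-rich tumors. The genes that rose were COL5A1 and COL5A2, which encode both common chains of type V collagen, and ZEB2, a transcription factor that represses E-cadherin. The gene that fell was SNTB1, which encodes beta-1 syntrophin, an adaptor of the dystrophin complex. At an unadjusted p under 0.05, 731 genes were higher (4.84%) and 926 lower (6.13%). These shares, and the 54.7% of genes with a positive difference, are the background of each count given for a gene list below. All other genes named below were chosen after their values were seen.

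COL5A1 had levels of 10.19 to 13.77 with a median of 11.05 in collagen-rich and of 6.32 to 9.42 with a median of 8.32 in collagen-poor tumors. The groups did not overlap. Type V collagen is a minor fibrillar collagen that is built into type I fibrils and is needed to start them. The difference was 3.02 (SE 0.49, adjusted p = 0.0471), and the tumors between the groups had 9.01 to 11.26. For COL5A2, levels were 12.05 to 14.61 (median 13.01) in collagen-rich and 9.87 to 12.15 (median 10.78) in collagen-poor tumors, a difference of 2.37 (SE 0.35, adjusted p = 0.0393). The highest collagen-poor tumors thus lay just above the lowest collagen-rich tumor. A further probe set of COL5A2 differed by 2.78 (SE 0.32) and was the only 1 of 42916 probe sets with an adjusted p under 0.05 over all probe sets (p = 0.00824). No probe set passed the thresholds of the study (adjusted p of 0.001 and 1.7-fold).

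ZEB2 had 7.97 to 10.29 (median 9.59) in collagen-rich and 6.35 to 8.25 (median 7.50) in collagen-poor tumors, a difference of 2.08 (SE 0.33, adjusted p = 0.0471). The ranges overlapped at their ends. SNTB1 lay at 3.87 to 4.69 (median 4.15) in collagen-rich and at 5.26 to 8.91 (median 6.62) in collagen-poor tumors, a difference of −3.03 (SE 0.45, adjusted p = 0.0393). Collagen-rich tumors lay close together at the low end, with an SD of 0.31, whereas collagen-poor tumors were spread with an SD of 1.26. The collagen-rich levels lay just above the array's median value of 3.66, and the part of this low signal in their narrow spread was not tested. The 9 tumors between the groups covered 3.87 to 8.26 and so reached into both. Without 1 tumor at a time, COL5A1 passed in 5, COL5A2 in 6, ZEB2 in 6 and SNTB1 in 7 of 18 fits, and each kept its direction in all 18 (2.79 to 3.20, 2.19 to 2.60, 1.91 to 2.25 and −3.24 to −2.71). The number of genes passing was 0 in 11 of the 18 fits, that without non-metastatic 12 being one of them. It rose in 5 of them, among these the fit without non-metastatic 8, with 9 higher and 2 lower. Among the tumors between the groups, which did not enter the fit, the slope on the score, scaled to the gap of 2.42, was 3.39 for COL5A1, 3.01 for COL5A2, 0.14 for ZEB2 and −1.21 for SNTB1. These slopes had no test and, unlike the group differences, no lymph node covariate. Of the 9 tumors 2 were metastatic, and 1 of these, metastatic 4, had the lowest score, COL5A1 (9.01) and COL5A2 (9.99) among them. The sign of the slope was that of the group difference for 4 of 4 genes, as it was for 45.8% of the genes with an unadjusted p under 0.05 and 42.5% of all genes, but the slope of ZEB2 was close to 0.

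**Figure D2:**
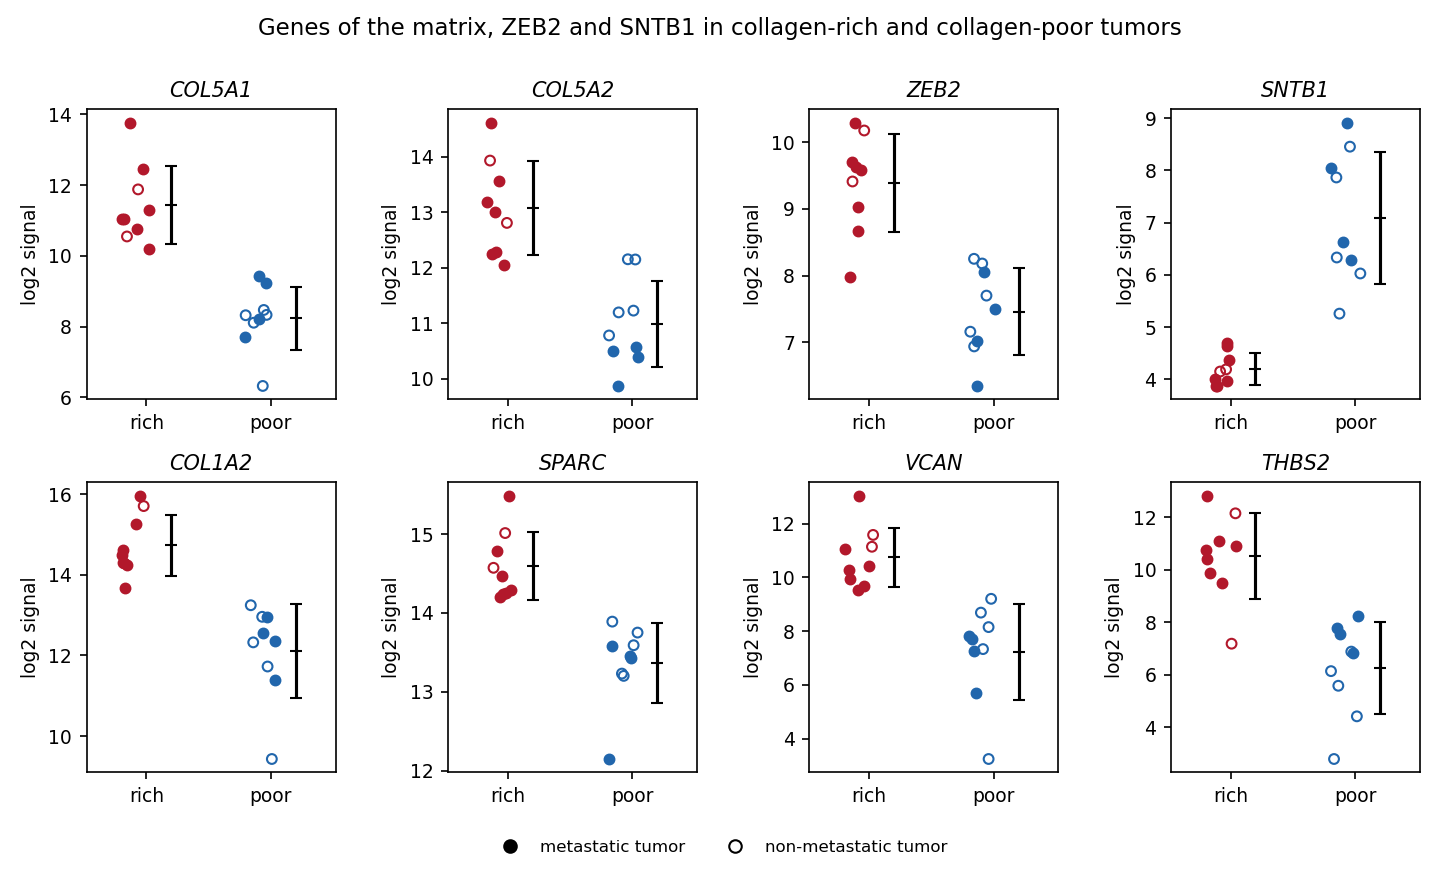
Log2 signal of 8 genes in 9 collagen-rich (left, red) and 9 collagen-poor tumors (right, blue), filled circles for metastatic tumors, with bars for mean and SD. COL5A1, SNTB1, COL1A2, SPARC and VCAN show no overlap between the groups, while COL5A2, ZEB2 and THBS2 overlap at their ends.

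Complete separation of the groups was seen for 10 genes on the higher side (0.0662% of genes) and 2 on the lower side (0.0132%). The higher ones were COL5A1, COL1A2, COL6A3, COL15A1, VCAN, SPARC, OLFML2B, SVEP1, SERPINF1 and LOC476006, and the lower ones SNTB1 and HNRNPH3, an RNA-binding protein (difference −0.72, adjusted p = 0.136). Of the 10 higher ones only COL5A1 passed in the fit.

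Among the other collagen chains, 16 of 18 measured had a positive difference, as did 54.7% of all genes, and their median was 1.46 against 0.01 for all genes. The adjusted threshold was passed by 2 of them, and 9 were higher and 0 lower at an unadjusted p under 0.05. COL1A2, the partner chain of COL1A1 in type I collagen, had 13.68 to 15.96 (median 14.49) in collagen-rich and 9.43 to 13.25 (median 12.35) in collagen-poor tumors, a difference of 2.60 (SE 0.49, adjusted p = 0.0862). Type VI collagen, which forms beaded filaments beside the fibrils, was represented by COL6A3 with 7.42 to 11.92 against 4.58 to 7.20 (difference 2.74, SE 0.58, adjusted p = 0.0932) and COL6A1 with a difference of 2.64 (adjusted p = 0.135). COL15A1, a collagen of the basement membrane zone, differed by 1.86 (adjusted p = 0.0970), and COL12A1, which coats fibrils, by 2.07 (adjusted p = 0.126). The mean level over the 18 chains was 7.16 to 8.36 in collagen-rich and 5.28 to 7.05 in collagen-poor tumors, with no overlap.

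The machinery that makes and trims collagen had smaller differences. Of 21 genes for folding, hydroxylation and cross-linking, 6 were higher and 0 lower at an unadjusted p under 0.05, and none passed adjustment (median 0.84). They included P4HA2, a prolyl hydroxylase subunit (1.13, SE 0.32, adjusted p = 0.191), P3H1, a prolyl 3-hydroxylase (1.47, SE 0.48, adjusted p = 0.237), and SERPINH1, the collagen chaperone HSP47 (1.28, SE 0.47, adjusted p = 0.303). LOX, the lysyl oxidase that cross-links fibrils, had a median of 3.64 in collagen-rich and 2.17 in collagen-poor tumors and a difference of 1.49 with an unadjusted p of 0.061. Of 14 genes of procollagen cleavage and fibril assembly, 8 were higher and 0 lower at an unadjusted p under 0.05 (median 0.66). PCOLCE, which enhances cleavage of the C-propeptide, had 10.13 to 12.94 against 6.39 to 11.39 and differed by 2.64 (SE 0.59, adjusted p = 0.0974).

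Other matrix groups had the same sign. Small leucine-rich proteoglycans with versican had the highest median of the groups described (1.57), with 7 of 17 members higher and 0 lower at an unadjusted p under 0.05. VCAN, the large proteoglycan versican, had 9.54 to 13.04 (median 10.42) in collagen-rich and 3.24 to 9.20 (median 7.72) in collagen-poor tumors, with a difference of 3.66 (SE 0.74, adjusted p = 0.0932). DCN and LUM, decorin and lumican, which bind collagen fibrils, had differences of 1.57 and 1.80 with SE of 0.83 and 0.72, and the lowest collagen-poor values, 7.01 and 7.32, were those of non-metastatic 8. Without it the differences were 1.15 and 1.38. Biglycan, BGN, differed by 2.09 (adjusted p = 0.130), asporin, ASPN, by 2.88 (adjusted p = 0.157) and osteomodulin, OMD, by 3.19 (adjusted p = 0.181).

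Among 21 matricellular proteins, secreted regulators that are bound to the matrix, 8 were higher and 0 lower at an unadjusted p under 0.05 (median 0.80). SPARC, which binds collagen, came closest to the threshold, with 14.20 to 15.49 (median 14.47) in collagen-rich and 12.15 to 13.89 (median 13.45) in collagen-poor tumors and a difference of 1.34 (SE 0.22, adjusted p = 0.0574). THBS2, thrombospondin 2, had 7.19 to 12.82 against 2.80 to 8.24 and differed by 3.64 (SE 0.71, adjusted p = 0.0932). Tenascin C, TNC, differed by 3.38 (adjusted p = 0.126) and periostin, POSTN, by 2.36 (adjusted p = 0.130). FN1, fibronectin, differed by 2.17 (SE 0.58, adjusted p = 0.157).

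Of 16 elastic fibre and microfibril genes, 5 were higher at an unadjusted p under 0.05 (median 0.75). Fibrillin 1, FBN1, the backbone of microfibrils, had 12.15 to 14.51 against 10.32 to 12.24 and differed by 1.76 (SE 0.31, adjusted p = 0.0629). Of 19 basement membrane genes, 8 were higher and 1 was lower at an unadjusted p under 0.05 (median 0.83). LAMA4, a laminin chain of vessels and mesenchyme, differed by 1.56 (SE 0.32, adjusted p = 0.0932), NID2, nidogen 2, by 2.18 (adjusted p = 0.126) and COL4A1, a chain of type IV collagen, by 1.17 (adjusted p = 0.154). UGDH, the enzyme that makes the UDP-glucuronate used for glycosaminoglycan chains, had 10.99 to 12.28 against 9.16 to 11.12 and differed by 1.41 (SE 0.28, adjusted p = 0.0932).

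**Figure D3:**
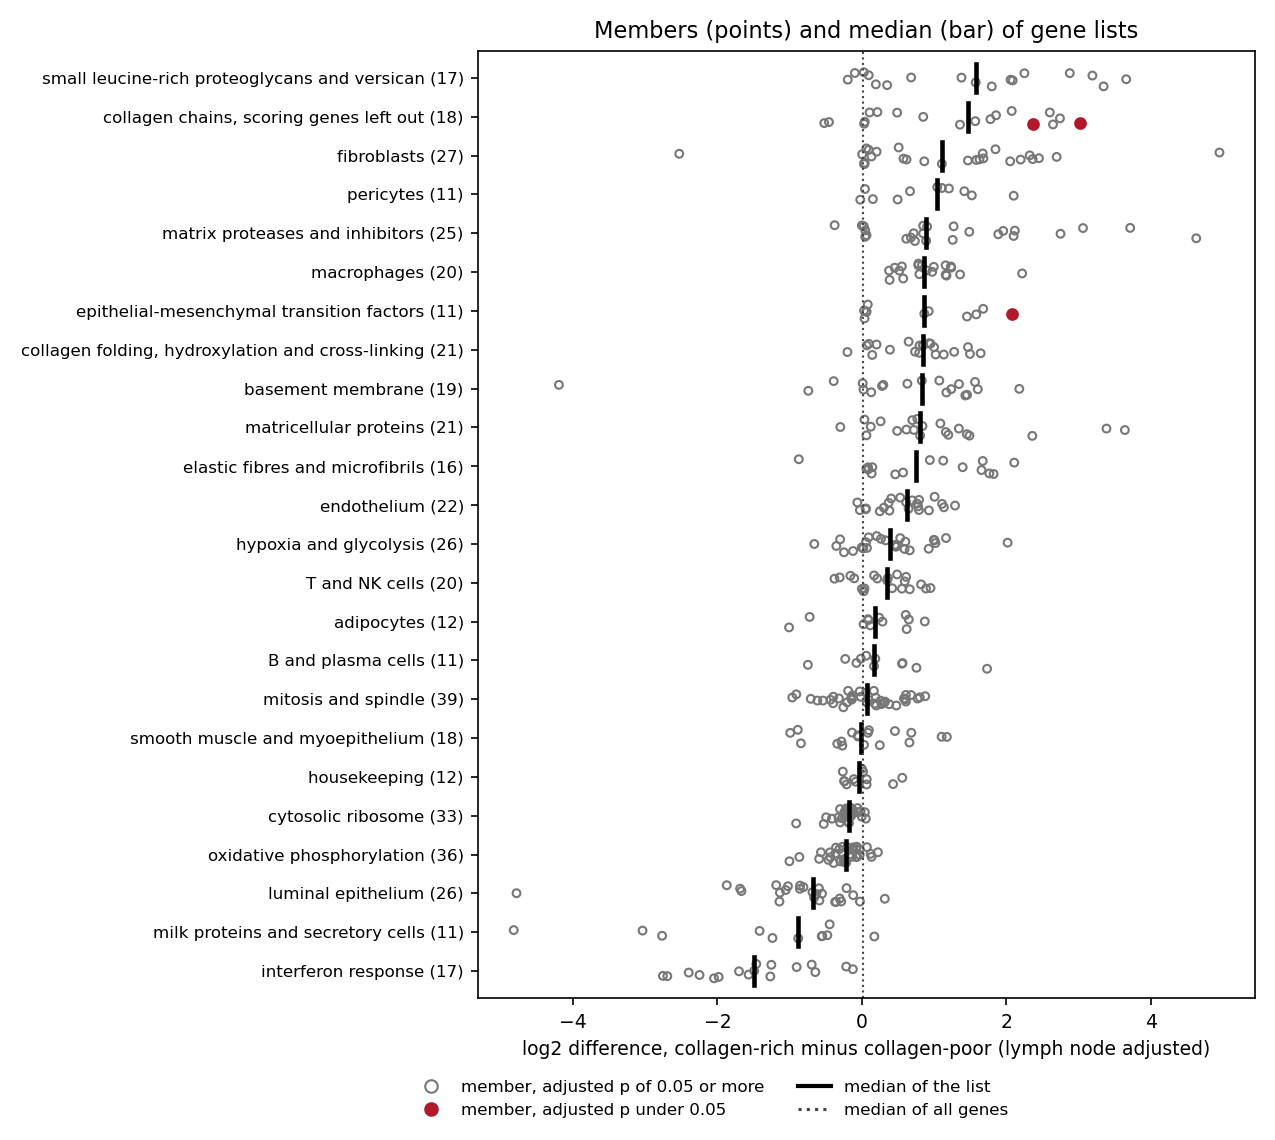
Log2 difference, collagen-rich minus collagen-poor, of each measured member of 24 gene lists (circles, number of members in brackets), with the list median (bar) and the median of all genes (dotted line). Filled circles mark COL5A1, COL5A2 and ZEB2, and the medians run from 1.57 for the small leucine-rich proteoglycans to −1.49 for the interferon response.

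Stromal cell markers followed. Fibroblast genes had a median difference of 1.11, and 15 of 27 were higher and 1 was lower at an unadjusted p under 0.05, with 26 of 27 positive. Dermatopontin, DPT, a matrix protein of fibroblasts, had 7.88 to 13.51 (median 10.41) in collagen-rich and 2.81 to 8.61 (median 5.89) in collagen-poor tumors, with the highest difference of all 15113 genes (4.95, SE 0.96, adjusted p = 0.0932). Fibroblast activation protein, FAP, differed by 2.36 (adjusted p = 0.204), and CDH11, the cadherin of mesenchymal cells, by 1.68 (adjusted p = 0.135). PRRX1, a mesenchymal transcription factor, differed by 1.58 (adjusted p = 0.0974), and SFRP2, a secreted Wnt modulator, by 2.45 (adjusted p = 0.156). PDGFRA, the PDGF receptor of fibroblasts, had a median of 8.07 against 6.39 and a difference of 0.62 with an SE of 0.84, so that this marker was not separable from 0. FSTL1, a secreted SPARC-related glycoprotein, had 10.28 to 12.33 against 8.40 to 10.48 and differed by 1.76 (SE 0.37, adjusted p = 0.0932).

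Pericyte genes had a median difference of 1.04, with 4 of 11 higher at an unadjusted p under 0.05, among them PDGFRB with a difference of 1.11 (adjusted p = 0.265). Smooth muscle and myoepithelial genes had a median of −0.01 with 1 of 18 higher, CALD1 at 1.17 (adjusted p = 0.150). ACTA2, the smooth muscle actin that also marks activated fibroblasts, had 11.89 to 14.86 against 11.59 to 14.23 and differed by 0.66 (SE 0.45, unadjusted p = 0.160). Of the endothelial genes, 20 of 22 were positive and 4 were higher at an unadjusted p under 0.05 (median 0.63), among them VWF with 1.11 (adjusted p = 0.362) and CDH5 with 0.93 (adjusted p = 0.364). The CDH5 probe set used had a mean of 3.37, below the array's median value of 3.66. Its further probe sets, of lower mean, differed by −0.01, 0.02 and 0.05.

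Macrophage genes were positive in 20 of 20 cases with a median of 0.86, and 9 were higher and 0 lower at an unadjusted p under 0.05. Over all genes 54.7% were positive, and 4.84% were higher and 6.13% lower at that threshold. MRC1, the mannose receptor, had 9.87 to 13.27 (median 10.87) in collagen-rich and 6.75 to 10.47 (median 8.56) in collagen-poor tumors and differed by 2.22 (SE 0.54, adjusted p = 0.126). CD163, a scavenger receptor of macrophages, differed by 1.36 (adjusted p = 0.209) and CD14, the coreceptor for lipopolysaccharide, by 1.16 (adjusted p = 0.262). STAB1, a scavenger receptor of macrophages and some endothelia, had 6.39 to 9.32 against 5.16 to 7.08 and differed by 2.01 (SE 0.38, adjusted p = 0.0810). The mean level of the macrophage list was 8.39 to 10.11 in collagen-rich and 7.18 to 8.96 in collagen-poor tumors. With this mean as a further covariate, the adjusted threshold was passed by 0 genes. The differences of the 4 genes in that fit were 2.58 for COL5A1, 2.32 for COL5A2, 1.42 for ZEB2 and −2.94 for SNTB1 (adjusted p = 0.285 to 0.413).

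Lymphocyte genes did not separate the groups. None of 20 T and NK cell genes passed even an unadjusted p of 0.05 (median 0.35), with CD3E, a chain of the T cell receptor complex, at 7.10 to 10.67 against 6.57 to 8.27. B and plasma cell genes had a median of 0.17, with 1 of 11 higher and 0 lower at an unadjusted p under 0.05. CD79A, a chain of the B cell receptor, had 2.43 to 4.12 against 2.44 to 2.59, where the median value of the array was 3.66. Of 8 mast cell genes 3 were higher and 1 was lower at an unadjusted p under 0.05, with CPA3, the mast cell carboxypeptidase, differing by 2.38 (adjusted p = 0.267).

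Matrix proteases and their inhibitors included 10 of 25 higher and 0 lower at an unadjusted p under 0.05 (median 0.89). Collagenase 3, MMP13, had 8.16 to 14.71 (median 11.30) in collagen-rich and 3.64 to 10.54 (median 6.38) in collagen-poor tumors and differed by 4.63 (SE 1.04, adjusted p = 0.0974). MMP1, the interstitial collagenase, differed by 3.71 (SE 1.05, adjusted p = 0.185), and CTSK, the collagen-degrading cathepsin K, by 1.26 (SE 0.35, adjusted p = 0.181). MMP2, a gelatinase, differed by 1.49 (adjusted p = 0.307). MMP14, the membrane-bound collagenase, had 2.93 to 5.84 against 2.71 to 12.75 and a difference of −0.38 with an SE of 1.18.

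Ligands and receptors of growth factor pathways had list medians of 0.04 (Wnt) to 0.37 (insulin-like growth factor axis), with a few members apart. Over all genes the median was 0.01. For TGF-beta, the main inducer of collagen synthesis in fibroblasts, 4 of 20 genes were higher and 1 was lower at an unadjusted p under 0.05 (median 0.22). TGFB2 differed by 2.11 (SE 0.60, adjusted p = 0.192), TGFB1 by 1.12 (SE 0.37, adjusted p = 0.251) and the receptor TGFBR2 by 1.00 (SE 0.27, adjusted p = 0.159). FGF7, a fibroblast-derived growth factor for epithelium, had 4.17 to 9.94 against 3.34 to 7.69 and differed by 3.05 (SE 0.80, adjusted p = 0.152), while 1 of 13 PDGF and FGF genes was higher at an unadjusted p under 0.05. Over all genes 4.84% were higher at that threshold. SFRP1, a Wnt antagonist, had 2.47 to 9.51 against 5.90 to 10.46 and differed by −2.53 (adjusted p = 0.326). Of the insulin-like growth factor axis 3 of 11 were higher, including IGFBP4 with 1.79 (SE 0.43, adjusted p = 0.126). Among 13 integrins, receptors for the matrix (median 0.36), 2 were higher, ITGB5 at 1.17 (adjusted p = 0.197) and ITGA5 at 1.61 (adjusted p = 0.246).

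Factors of epithelial-mesenchymal transition, the loss of epithelial in favour of mesenchymal traits, were positive in 11 of 11 cases (median 0.86). ZEB2 passed adjustment, and 4 were higher at an unadjusted p under 0.05. ZEB1, its paralog, had 8.38 to 10.88 against 6.76 to 9.48 and differed by 1.68 (SE 0.45, adjusted p = 0.155), and VIM, vimentin, by 0.86 (adjusted p = 0.224). SNAI2 and TWIST1, further factors of this list, had differences of 0.92 and 0.06 with SE of 0.48 each. CDH1, E-cadherin, had 3.81 to 8.80 (median 7.59) in collagen-rich and 4.71 to 9.00 (median 7.39) in collagen-poor tumors, a difference of 0.32 (SE 0.79) whose sign turned in several other fits. These factors are also made by fibroblasts and macrophages, whose lists had positive medians, and the part of those cells in the values was not tested.

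The luminal epithelial list had a median difference of −0.67, with 25 of 26 members negative and 6 lower at an unadjusted p under 0.05. The median was −0.26 without non-metastatic 12, and −0.95 to −0.26 without 1 tumor at a time. With tumor size and age as further covariates it was −0.12, and with the upper quartile of the array −0.11. Over all alternatives run it was −2.03 (non-metastatic tumors only) to 0.13 (the mean of this list as covariate). Its mean level was 4.80 to 8.55 (median 7.92) in collagen-rich and 7.00 to 9.40 (median 8.57) in collagen-poor tumors. ELF5, a transcription factor of the secretory mammary epithelium, had 2.31 to 8.86 (median 4.76) in collagen-rich and 5.41 to 13.92 (median 10.26) in collagen-poor tumors and differed by −4.78 (SE 1.28, adjusted p = 0.157). EPCAM, an epithelial adhesion molecule, differed by −0.86 (adjusted p = 0.298) and ESRP1, an epithelial splicing regulator, by −1.67 (adjusted p = 0.301). The keratins KRT8 and KRT18 of luminal cells had differences of −0.31 and −1.06 with SE of 0.73 and 1.24, which without non-metastatic 12 were 0.49 and 0.30.

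Milk protein and secretory genes had a median of −0.88, with 10 of 11 negative and 2 lower at an unadjusted p under 0.05. Without non-metastatic 12 the median was −0.35. Over all alternatives run it was −2.30 (non-metastatic tumors only) to −0.15 (tumor size and age as further covariates). LALBA, alpha-lactalbumin, was spread widely, with 2.45 to 10.68 (median 2.62) in collagen-rich and 2.64 to 14.51 (median 10.78) in collagen-poor tumors and a difference of −4.82 (SE 1.49, adjusted p = 0.210). Of the collagen-rich tumors, only non-metastatic 3 reached 10.68. BTN1A1, a protein of the milk fat globule, differed by −3.04 (SE 1.05, adjusted p = 0.266).

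The interferon response list had the lowest median of the 42 lists, −1.49, with 17 of 17 members negative and 13 lower and 0 higher at an unadjusted p under 0.05, none passing adjustment. Interferon-induced genes encode antiviral effectors and are switched on by type I interferon in nearly all cell types. OAS1, which makes the oligoadenylate messenger, had 8.25 to 10.94 (median 8.93) in collagen-rich and 9.69 to 11.75 (median 10.65) in collagen-poor tumors and differed by −1.70 (SE 0.38, adjusted p = 0.0974). MX1, an antiviral GTPase, had 7.09 to 11.84 (median 10.01) against 9.86 to 12.87 (median 12.31) and differed by −2.69 (SE 0.68, adjusted p = 0.136). ISG15, a ubiquitin-like modifier, had 6.31 to 11.19 (median 9.14) against 9.27 to 12.61 (median 11.25) and differed by −2.76 (SE 0.73, adjusted p = 0.155). CMPK2, a mitochondrial nucleotide kinase, differed by −2.40 (adjusted p = 0.150) and USP18, the protease that removes ISG15, by −2.25 (adjusted p = 0.204). Over the list the mean level was 6.12 to 8.18 (median 6.91) in collagen-rich and 6.44 to 9.88 (median 8.29) in collagen-poor tumors. The lowest collagen-poor value was that of non-metastatic 8, the tumor of lowest score, and the other 8 collagen-poor tumors had 7.86 or more. The median of the list was −1.76 to −1.28 without 1 tumor at a time and −2.06 to −0.73 over all alternatives run.

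**Figure D4:**
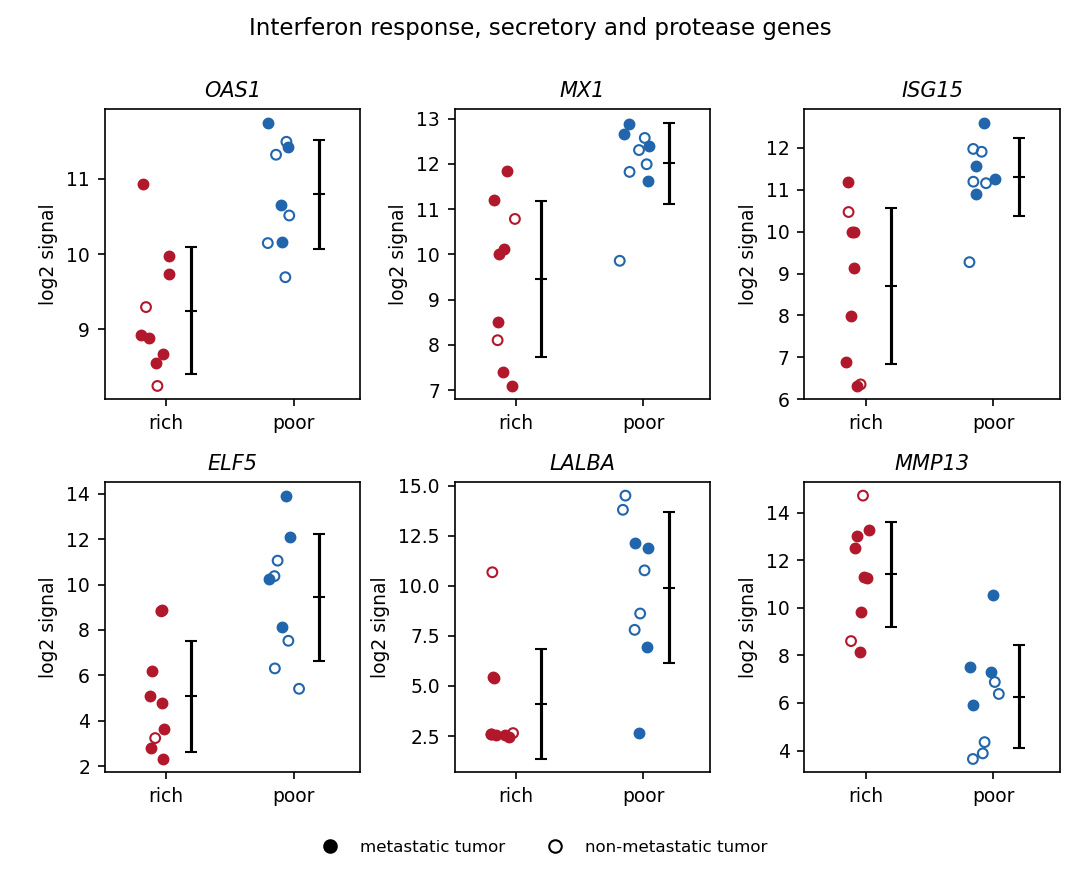
Log2 signal of OAS1, MX1, ISG15, ELF5, LALBA and MMP13 in 9 collagen-rich (left, red) and 9 collagen-poor tumors (right, blue), filled circles for metastatic tumors, with bars for mean and SD. The interferon-induced genes OAS1, MX1 and ISG15 have lower medians in collagen-rich tumors (8.93, 10.01 and 9.14 against 10.65, 12.31 and 11.25), MMP13 has a higher one (11.30 against 6.38), and each gene overlaps between the groups.

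Lists of general cell functions had smaller median differences than the matrix lists, between −0.23 and 0.39. Mitosis and spindle genes had a median of 0.07 with 0 of 39 at an unadjusted p under 0.05, and DNA replication genes one of −0.10 with 3 of 38 lower. Over all genes 6.13% were lower and 4.84% higher at that threshold. Hypoxia and glycolysis genes had a median of 0.39 with 7 of 26 higher and 1 lower, among them ENO1, enolase, with 0.59 (SE 0.16, adjusted p = 0.154). For oxidative phosphorylation 32 of 36 genes were negative and 8 lower (median −0.23), and for the cytosolic ribosome 31 of 33 were negative and 8 lower (median −0.18), including RPL14 with −0.50 (SE 0.14, adjusted p = 0.178). Genes of endoplasmic reticulum secretion were higher in 5 of 25 cases (median 0.24), with KDELR3, a retrieval receptor, at 1.24 (SE 0.33, adjusted p = 0.154) and CALR, calreticulin, at 0.84 (adjusted p = 0.197). Further probe sets of CALR differed by 0.98, 0.12 and 0.06. The housekeeping list had a median of −0.04, and cartilage and bone genes one of 0.04. Measures of RNA quality did not pass a test: the actin 3′ minus 5′ probe difference was 2.48 ± 0.45 in collagen-rich and 2.93 ± 0.49 in collagen-poor tumors (SD, n = 9 each; exact permutation p = 0.0565), and that of GAPDH was 1.83 ± 0.42 and 1.72 ± 0.35 (exact permutation p = 0.531).

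Within the metastatic tumors (7 collagen-rich against 4 collagen-poor) and the non-metastatic tumors (2 against 5) the collagens kept a positive median, 1.90 and 0.65. The interferon list was negative in both, −1.72 and −0.73. Other lists had opposite medians: luminal genes 0.02 in metastatic and −2.03 in non-metastatic tumors, T and NK cell genes −0.34 and 1.95, and mitosis genes −0.85 and 1.65, where the non-metastatic value rests on 2 collagen-rich tumors, one of which is non-metastatic 12. An interaction of the collagen group with lymph node status passed adjustment for 1 gene (0.00662%), INSC, a regulator of spindle orientation, and had an unadjusted p under 0.05 for 1525 genes (10.1%). INSC had 2.29 to 2.37 in metastatic collagen-rich, 2.35 to 2.37 in metastatic collagen-poor, 2.93 and 3.26 in non-metastatic collagen-rich and 2.27 to 2.42 in non-metastatic collagen-poor tumors (interaction −0.79, SE 0.088, adjusted p = 0.00335). All of these lie in the low range of the array, where the median value was 3.66.

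The score was also fitted as a continuous measure over all 27 tumors, with each coefficient scaled to the gap of 2.42 between the groups. In this fit 130 genes rose with the score (0.86%) and 147 fell (0.973%). COL1A2 changed by 2.73 (adjusted p = 2.2e-12), COL5A1 by 2.88 (adjusted p = 3.6e-07), VCAN by 3.88 (adjusted p = 3.6e-07) and SPARC by 1.22 (adjusted p = 1.1e-05), and all 4 genes of the group comparison were among the 277. By list, 7 of 18 collagens, 10 of 27 fibroblast genes, 7 of 21 matricellular, 6 of 17 small proteoglycan and 4 of 25 protease genes rose, and 1 of 17 interferon genes and 6 of 33 ribosomal genes fell. Fibronectin, FN1, rose by 2.30 (adjusted p = 0.00032), SVEP1, a large adhesion protein of the matrix, by 2.34 (adjusted p = 2.1e-05) and SERPINF1, a secreted serpin that binds collagen, by 3.41 (adjusted p = 0.00013).

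Non-metastatic 8 has the greatest weight in a line over all tumors. Without it, in a fit added after the data were seen, 119 genes rose (0.787%) and 117 fell (0.774%), and 71 of the rising and 41 of the falling genes were shared with the fit over 27 tumors. DCN and FAP were no longer called (adjusted p = 0.052 and 0.055). Interferon genes were: 8 of 17 fell in this fit, and the median of the list was −2.06. ISG15 fell by 3.57 (SE 0.49, adjusted p = 0.00033), MX1 by 3.31 (SE 0.49, adjusted p = 0.00099), OAS1 by 2.06 (SE 0.25, adjusted p = 8e-05), USP18 by 2.86 (SE 0.50, adjusted p = 0.0030) and CMPK2 by 2.73 (SE 0.46, adjusted p = 0.0029). ELF5 fell by 5.13 (SE 1.16, adjusted p = 0.023). Of the matricellular list 5 genes passed in place of 7, of the small proteoglycans 5 in place of 6 and of the proteases 2 in place of 4. COL5A1 rose by 3.23 (SE 0.32), THBS2 by 3.97 (SE 0.69, adjusted p = 0.0030), MMP13 by 4.74 (SE 1.05, adjusted p = 0.019) and MRC1 by 2.21 (SE 0.55, adjusted p = 0.039).

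Genes that were lower in collagen-rich tumors were unevenly spread over the chromosomes. Chromosomes were read from the canine gene table used for symbols, which matched 15112 of 15113 genes, and this grouping was chosen after the values were seen and was not tested. On chromosome 13, 57 of 289 genes (19.7%) were lower at an unadjusted p under 0.05, against 6.13% of all genes and 0.787% to 13.7% on the other chromosomes with at least 100 genes. SNTB1 lies on this chromosome. So do MYC, the transcription factor, with 7.95 to 9.96 against 9.16 to 11.45 (difference −0.97, SE 0.32, adjusted p = 0.249), EIF3E, a translation initiation factor subunit (−0.72, SE 0.19, adjusted p = 0.158), EEF1D, an elongation factor subunit (−0.56, SE 0.17, adjusted p = 0.205), and NDUFB9, a subunit of respiratory complex I (−0.87, SE 0.24, adjusted p = 0.177). With the continuous score over 27 tumors, 24 of the 147 genes that fell were on it, these among them. Without non-metastatic 8, 6 of the 117 genes that fell were on it. Chromosome 13 held 289 of the 15113 genes tested.

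The mean level of the 289 genes was 5.87 to 6.37 (median 6.06) in collagen-rich and 5.82 to 6.79 (median 6.13) in collagen-poor tumors. The groups overlapped, and 4 of 9 collagen-poor tumors lay above every collagen-rich one: metastatic 12 (6.79), non-metastatic 8 (6.64), metastatic 8 (6.49) and metastatic 13 (6.45). The share of lower genes was 12.1% to 23.9% without 1 tumor at a time and 7.96% without the lymph node covariate, where that of all genes was 4.97%. Within metastatic tumors it was 22.1% against 6.25% of all genes, and within non-metastatic tumors 4.15% against 3.68%. With the continuous score the share was 33.2% over 27 tumors and 15.2% without non-metastatic 8, against 8.40% and 7.49% of all genes, and the median was −0.21 and −0.06. Other chromosomes were also above the share of all genes over 27 tumors, with 24.9% on chromosome 14, 22.9% on 24 and 20.9% on 12. On the higher side of the group comparison, chromosome 33 had 15.5% and chromosome 3 11.5%, against 4.84% of all genes.

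**Figure D5:**
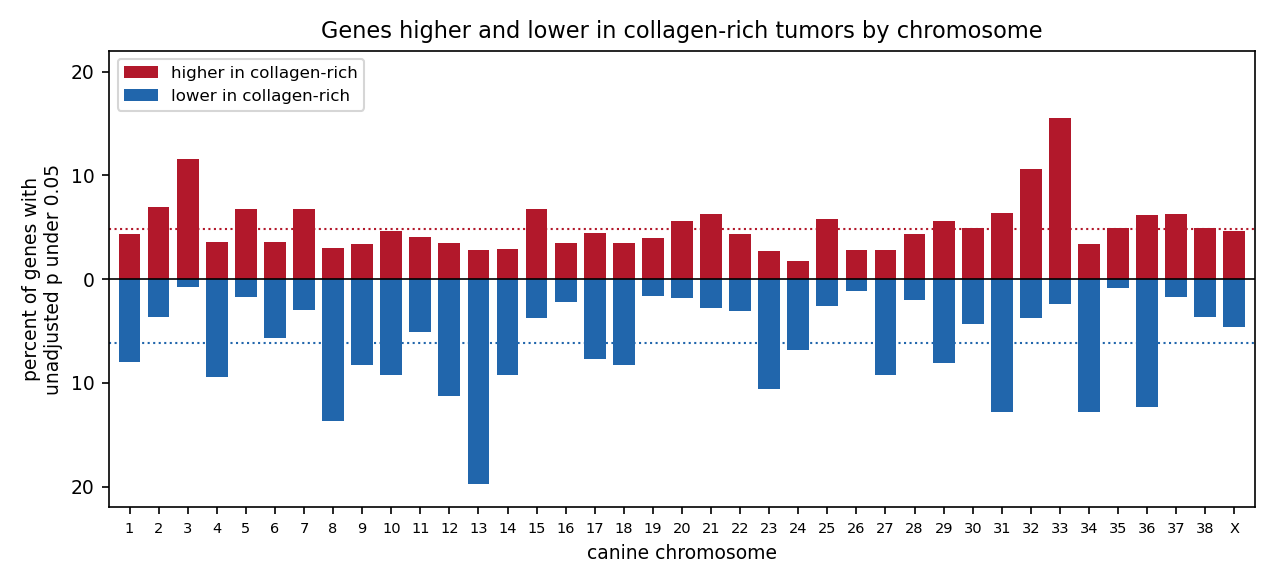
Percent of genes per canine chromosome with an unadjusted p under 0.05, higher (red, upward) and lower (blue, downward) in collagen-rich tumors, with dotted lines at 4.84% and 6.13%, the shares of all genes. Chromosome 13 has the highest share of lower genes (19.7%) and chromosome 33 of higher genes (15.5%).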

How the data were processed

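RNA of 27 tumors, each from another dog, was hybridized to Affymetrix Canine Genome 2.0 arrays. Per the submitters' processing notes and the study's methods, the authors used Partek with GCRMA and RMA (RMA background correction, then quantile normalization and a median polish). The values they deposited are on a log2 scale (0.29 to 16.61), and their precision is limited by the number of arrays. Values were used as deposited. Of 43035 probe sets, 111 controls and the 8 of the scoring genes were left out. 29254 carry 1 gene symbol, 439 several and 13231 none, and for each gene the probe set with the highest mean over the tumors was used. Collagen-rich and collagen-poor tumors were compared with limma 3.58.1 (R 4.3.3), lymph node status as covariate and Benjamini-Hochberg adjustment over 15113 genes. The script was checked on simulated data. Labels were tested with exact or, over 10 values, 100000-resample permutation tests and Fisher's exact test (scipy 1.17.1), all two-sided. No 2 arrays held identical values.

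Named genes were those passing adjustment, and others were chosen after their values were seen. The groups, the 42 gene lists and the alternatives were chosen with earlier results of these data known. No test of a list as a set was run. Alternatives (44, and 2 added after the data were seen) covered covariates, scaling, probe set choice, the test, the score and single tumors. Symbols come from the platform annotation and chromosomes from the RefSeq gene table of UU_Cfam_GSD_1.0. The genome build behind the array's design is not given in the sources used here, and no coordinates are given.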

Additional observations from a re-analysis of the deposited data

Results flagged for a closer look

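Single tumors lay apart from the other 8 of their group in 31 of 198 groups of values examined (15.7%). Chance flags about 1 in 20 unrelated groups, but these groups were not independent, so no excess can be read from the share. The collagen groups were cut on the score, which was itself among the values examined. Genes other than those passing adjustment were chosen after their values were seen, and all were measured in the same tumors. In the collagen-poor group, non-metastatic 8 was the lowest for the score (10.21) and COL1A1 (9.96), and for COL1A2 (9.43), FN1 (7.98), DCN (7.01), LUM (7.32), SFRP2 (7.17), FAP (2.73), THY1 (3.74), TIMP1 (8.30), SVEP1 (4.09) and SERPINF1 (4.08). The same tumor was the lowest of the collagen-poor group for the interferon-induced genes MX1 (9.86) and USP18 (6.99). Metastatic 13 was the lowest collagen-poor tumor for COL6A1 (4.69), SPARC (12.15), PDGFRB (5.47) and ITGB5 (7.77). In the same group, FGF7 was highest in non-metastatic 7 (7.69), ITGA5 highest in non-metastatic 9 (10.07) and age highest in metastatic 8 (16 years).

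In the collagen-rich group, non-metastatic 12 was lowest for CDH1 (3.81), KRT8 (8.99), KRT18 (5.69) and EEF1D (13.67), and highest for ANGPT1 (5.79), CTSK (14.6) and COL9A1 (11.40), a cartilage collagen. Non-metastatic 3 was the highest collagen-rich tumor for the milk protein genes LALBA (10.68) and CSN2 (13.45), and metastatic 10 the lowest for VIM (13.80).

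The effect of the collagen group differed with lymph node status for INSC, with an interaction of −0.79 (limma, adjusted p = 0.00335). The difference was −0.03 in metastatic and 0.76 in non-metastatic tumors, the second from 2 collagen-rich tumors.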

How the results depend on the processing

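The number of genes passing in the group comparison moved with nearly every setting, while the direction of COL5A1, COL5A2, ZEB2 and SNTB1 held under all alternatives run (2.28 to 3.45, 1.83 to 2.78, 1.36 to 2.59 and −3.53 to −2.005). In place of 3 higher and 1 lower, the counts were 27 and 9 without the lymph node covariate, 3 and 2 with grade, 1 and 4 with size and age, 5 and 1 with arrays centred on the median or the upper quartile, 24 and 7 among probe sets above the median mean, 1 and 1 with the probe set of largest interquartile range, 45 and 17 with all 27 tumors in 3 groups (1 probe set past the study's thresholds), 130 and 147 with the continuous score (35 and 3 probe sets) and 119 and 117 over 26 tumors (15 and 6 probe sets). Scores from COL1A1 alone gave 7 and 26, from COL3A1 alone 22 and 7, from all their probe sets 10 and 4, and as deviation from the lymph node group mean 5 and 2. Groups of 7 gave 0 and 1, and groups of 13 gave 7 and 5. Of COL5A1, COL5A2, ZEB2 and SNTB1, 0 were among the genes called with COL1A1 alone, with size and age or in groups of 7, 1 with the deviation, 2 with groups of 13 or the largest interquartile range, and 3 with all probe sets. The count was 0 in both directions with the ending of the sample name, the array's upper quartile, the GAPDH 3′ to 5′ difference, the luminal mean or the macrophage mean as covariate, with array weights, with an ordinary linear model, within metastatic or non-metastatic tumors alone, and without both non-metastatic 8 and non-metastatic 12. The ending of the name goes with lymph node status (T in 11 of 13 metastatic and 0 of 14 non-metastatic tumors). Without 1 tumor at a time 0 to 15 genes were higher and 0 to 13 lower: 11 of 18 omissions left none, while 15 and 8 passed without metastatic 10, 11 and 13 without non-metastatic 3, 9 and 2 without non-metastatic 8, 4 and 4 without non-metastatic 7, and 5 and 1 without metastatic 1. Centring on the upper quartile moved unadjusted counts to 927 higher and 678 lower.

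With COL1A1 alone as score, lymph node metastases were 66.7 percentage points more frequent in collagen-rich tumors (Fisher's exact test, unadjusted p = 0.0152). In that setting the score difference by lymph node status was 1.13 (permutation test, unadjusted p = 0.0137), and size differed by −0.833 cm. With COL3A1 alone the grade III share differed by −11.1 points. Survival had r of 0.0393 without the 2 tumors farthest from the median survival. Signs turned for CDH1 (−0.0399 continuous, −0.70 with COL1A1 alone, −0.43 in groups of 7, −0.0239 in groups of 13, −1.38 in non-metastatic tumors, −0.14 to 1.17 without 1 tumor at a time), KRT8 (0.21 with size and age, 0.58 with the upper quartile, 0.78 with the luminal mean, 0.33 with the macrophage mean, 0.0758 with array weights, 0.0385 with COL3A1 alone, 0.0467 with all probe sets, 0.34 without both tumors, 0.65 in metastatic tumors, −0.81 to 0.49 without 1 tumor at a time), KRT18 (0.24 with the upper quartile, 0.71 with the luminal mean, 0.12 with the macrophage mean, 0.13 without both tumors, 0.49 in metastatic tumors, −2.26 to 0.30 without 1 tumor at a time) and COL9A1 (1.00 in non-metastatic tumors, main −3.17). The causes were not tested. Other gene results kept direction and side of the threshold in 3989 cases, gained a call in 200 and lost one in 108. Only COL5A1, COL5A2, ZEB2 and SNTB1 passed in the main fit and could lose a call, so the 108 are losses of these genes. The 3989 are mostly genes that passed in neither fit, so they do not measure how stable the calls were. No paired analysis was possible because each tumor came from another dog.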
